A study of Homo sapiens with 8 samples.

Results

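Glycolysis converts glucose to pyruvate and lactate, and most of its enzymes exist as isoenzymes from separate genes. Under low oxygen the hypoxia-inducible factors, of which HIF1A encodes an oxygen-regulated alpha subunit, bind hypoxia response elements and raise genes of glucose uptake, glycolysis, angiogenesis, mitophagy and oxygen sensing. Prolyl hydroxylases of the EGLN family mark the alpha subunit for destruction when oxygen is present, and several of them are themselves hypoxia-induced. Because control of HIF1A by oxygen acts mainly on its protein, RNA levels of HIF1A and of its target genes are separate measurements.

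The glycolysis and hypoxia response genes described here are 33 genes listed by symbol, and all 33 were found among the 18892 gene rows of the RNA sequencing table. They comprised 17 glycolytic enzymes, 4 genes of glucose or lactate transport and PFKFB regulation, 11 other hypoxia-induced genes and HIF1A. The RNA came from C4-2, an established prostate cancer cell line of LNCaP origin whose growth does not need androgen, and was sequenced as 2 libraries with a short hairpin RNA against CDCA8 (shCDCA8) and 2 libraries with a control hairpin (shCTRL). All were grown in serum-containing RPMI medium, and no oxygen limitation or drug is named in the labels. The labels name 1 hairpin against CDCA8 and do not say whether lines were clones or pools, nor whether replicates were separate cultures. The p-values thus measure only the spread between these libraries, with each gene's variance drawn toward a trend over all tested genes. The series' remaining 4 libraries, of small RNA from cells with a hairpin against EZH2 and their controls, enter only the closing observations.

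Values are RPM, in which the reads of a gene are divided by a library total that the authors chose. The gene rows took 33.3% and 34.2% of that total in shCDCA8 libraries and 41.1% and 43.6% in shCTRL libraries, or 17406425 to 21920570 reads per library. The median log2 fold change of all tested genes was therefore shifted to -0.27, and calls and fold changes of members are given on RPM as deposited and after median-ratio scaling (a factor per library taken from the median over genes of its ratio to the 4-library geometric mean), under which that median was 0.0058. The targeted gene CDCA8 stood at 3.98 and 3.94 RPM in shCDCA8 libraries, against 14.2 and 16.5 RPM in shCTRL libraries. All 9 prostate luminal markers that were checked passed 1 RPM, and their summed level was 1827 to 1938 RPM in shCDCA8 libraries and 3267 to 3416 RPM in shCTRL libraries. KLK3, the highest, took most of that difference, and the markers did not move together: among them KLK3, KLK2 and TMPRSS2 fell and KRT8 and KRT18 rose under both scalings. Of 14 markers of fibroblasts, endothelium, leukocytes and basal cells, 10 were matched and 4 reached 1 RPM in at least 2 libraries, and their summed level was 16.1 to 18.4 RPM in shCDCA8 libraries and 23.5 to 29.1 RPM in shCTRL libraries, COL1A1 being the highest. DCN, LUM, PECAM1 and CD3E were under 1 RPM in all 4 libraries and listed at 0 in at least 1. COL1A1, the endothelial marker VWF, the leukocyte marker CD68 and the basal marker KRT14 were above 1 RPM in all 4. VWF had 1.36 and 1.84 RPM in shCDCA8 libraries, against 5.23 and 6.47 RPM in shCTRL libraries. CD68 had 8.82 and 9.89 RPM, against 5.80 and 7.88 RPM. COL1A1 and VWF fell and CD68 rose under both scalings, and KRT14 was not called. In bulk RNA fewer cells of a type and less RNA per cell cannot be told apart, and the part of these markers in the results was not tested.

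After CDCA8 knockdown the glycolytic genes did not move together. Neither did all tested genes, of which 18.8% rose and 33.6% fell under both scalings. ALDOA, ALDOC and TPI1 rose, and HK2, GPI, PFKP, PGK1 and ENO2 fell, each under both scalings. Among the other hypoxia-induced genes BNIP3L, EGLN1 and ANKRD37 rose and VEGFA, PDK1 and P4HA2 fell, again under both scalings. HIF1A rose and the glucose transporter gene SLC2A1 fell. In these statements a gene rose or fell when its adjusted p was under 0.05 in limma, fitted on log2(RPM + 1), a scale that makes changes of low genes look smaller. The fit ran across all 11833 genes that reached 1 RPM in 2 or more of the 4 libraries, and 31 of the 33 members were among them. Agreement of both scalings is not an independent check, because scaling moved genes upward. All 2224 genes that rose as deposited also rose after scaling, and all 3979 that fell after scaling also fell as deposited. For a rise the stricter setting is thus RPM as deposited, and for a fall it is median-ratio scaling.

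Of the 17 glycolytic enzymes, all of which were tested, 3 rose and 9 fell on RPM as deposited, where 18.8% of all tested genes rose and 47.6% fell (66.4% in either direction). Under median-ratio scaling 8 rose and 5 fell, where 33.2% of all genes rose and 33.6% fell (66.8% in either direction). Of the 11 other hypoxia-induced genes 9 were tested, and 3 rose and 3 fell as deposited, while 6 rose and 3 fell under median-ratio scaling. Called in the same direction under both scalings were 8 glycolytic enzymes, 6 other hypoxia-induced genes and 16 of the 31 tested members in all (51.6%). That share was close to the 52.4% of all tested genes, so the number of calls does not set the members apart. Groups did not overlap for 24 of the 31 as deposited and 27 after scaling, against 83.2% and 84.2% of all tested genes.

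The median log2 fold change was -0.29 for the glycolytic enzymes and 0.09 for the other hypoxia-induced genes as deposited, beside -0.27 for all tested genes. With median-ratio scaling the medians were 0.02 and 0.38. The class of other hypoxia-induced genes thus had the higher median in both, a description of 17 and 9 genes without a test. It did not extend to the 26 tested hypoxia-induced genes outside the members. Their medians, -0.29 as deposited and 0.02 after scaling, were close to those of the glycolytic enzymes. The control libraries themselves differed for the glycolytic enzymes. In shCTRL replicate 2, 16 of the 17 were higher than in replicate 1. The median difference was 0.23 on the log2 scale as deposited and 0.16 after scaling, against 0.07 and -0.0018 over all genes.

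**Figure D1:**
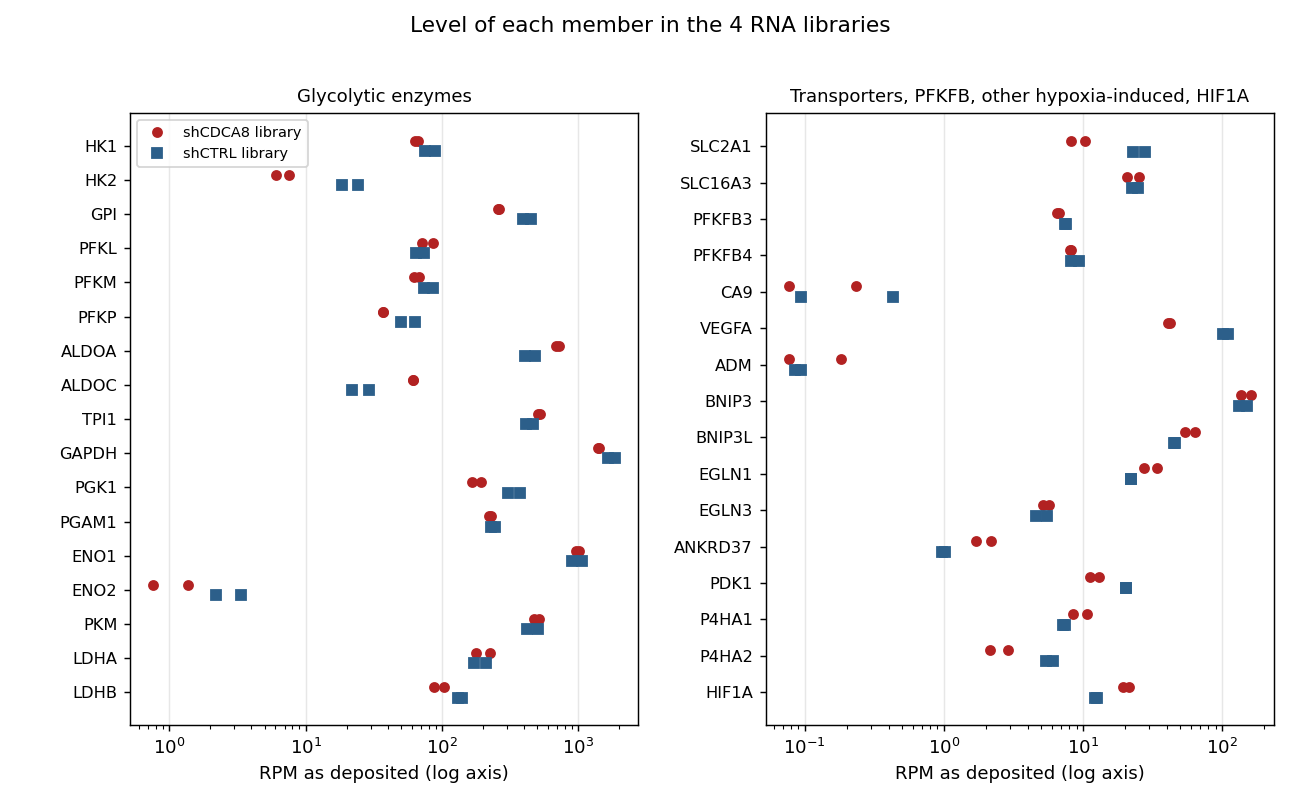
RPM as deposited (log axis) of the 17 glycolytic enzymes and the 16 other members, with each shCDCA8 library a red circle and each shCTRL library a blue square. The groups lie apart for HK2, GPI, ALDOC, VEGFA and SLC2A1 and are intermixed for ENO1, PKM, LDHA and BNIP3. RPM is not scaled by transcript length, so positions are to be read within a gene and not between genes.

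The core of the hypoxia response element was sought as ACGTG or GCGTG, on either strand, in RefSeq promoter windows (GRCh38.p14) of 250 bases before to 50 after a gene's start, with overlapping matches merged into 1 site. It was present in 38 of 58 windows of the members (65.5%), against 48.4% of all 35116 windows, and 28 of the 31 members with a window held it in at least 1 of them, against 52.4% of all genes with a window. The shares by gene are not a like comparison, because a gene with more windows has more places for a match. The 31 members had 58 windows, with 7 each for HK1 and PFKM, whereas 27305 genes had the 35116. That background holds all genes with a window and not only the tested ones. Stretches before the start are shown for the 4 members called under both scalings that held a site and whose printed stretch met no annotated gene. Capitals mark the sites, and CACGTG is a match on each strand. PGK1 and ENO2 fell, and ALDOC and EGLN1 rose.
PGK1 (chrX:78104027-78104079, plus strand): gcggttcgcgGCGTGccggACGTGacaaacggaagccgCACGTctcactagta
ENO2 (chr12:6914452-6914476, plus strand): ccgcgctcgtACGTGcgcctccgcc
ALDOC (chr17:28576909-28577145, minus strand): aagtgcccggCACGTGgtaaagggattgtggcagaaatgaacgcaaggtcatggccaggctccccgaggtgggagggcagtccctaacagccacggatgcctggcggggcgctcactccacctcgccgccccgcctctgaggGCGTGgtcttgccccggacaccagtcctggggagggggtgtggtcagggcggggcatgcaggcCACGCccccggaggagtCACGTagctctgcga
EGLN1 (chr1:231422288-231422310, minus strand): gccgtggtgtACGTGcagagcgc
A match is a string of letters in these windows and not a measured binding site. ALDOC, which rose, has 4 sites and PGK1, which fell, has 3 in the printed stretches, so matches stood before genes of either direction.

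Hexokinase, which traps glucose in the cell, gave the largest fall of the members. HK2, the hexokinase isoform typical of growing and tumour cells, had 6.03 and 7.60 RPM in shCDCA8 libraries, against 18.6 and 24.4 RPM in shCTRL libraries. Both knockdown libraries lay below both controls, with a log2 fold change of -1.52 ± 0.156 (SE, limma adjusted p = 5.92e-06) as deposited and -1.23 ± 0.142 under median-ratio scaling. HK1, the more widely expressed hexokinase, had 63.7 and 66.6 RPM in shCDCA8 libraries, against 75.8 and 89.0 RPM in shCTRL libraries. HK1 fell by 0.33 as deposited (limma adjusted p = 0.0178), a call that did not hold under median-ratio scaling (-0.02, adjusted p = 0.846) or without shCDCA8 replicate 1 (-0.30, adjusted p = 0.0674) or shCTRL replicate 2 (-0.21, adjusted p = 0.203).

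GPI, which turns glucose 6-phosphate into fructose 6-phosphate, had 257 and 261 RPM in shCDCA8 libraries, against 392 and 453 RPM in shCTRL libraries. It fell by 0.70 as deposited (limma adjusted p = 4.51e-05) and by 0.39 after scaling (adjusted p = 0.00242). The phosphofructokinases, which commit sugar to glycolysis, differed among themselves. PFKP, the platelet type, had 37.0 and 37.2 RPM in shCDCA8 libraries, against 50.5 and 63.4 RPM in shCTRL libraries, and fell under both scalings (-0.60, limma adjusted p = 0.000986; -0.29, adjusted p = 0.0333). PFKL, the liver type, had 71.8 and 86.6 RPM in shCDCA8 libraries, against 64.8 and 74.5 RPM in shCTRL libraries; the groups overlapped and it was not called as deposited (0.18, adjusted p = 0.197), while after scaling it rose by 0.49 (adjusted p = 0.00207). PFKM, the muscle type, had 62.5 and 67.6 RPM in shCDCA8 libraries, against 74.0 and 86.2 RPM in shCTRL libraries. Its fall as deposited (-0.29, limma adjusted p = 0.0318) was absent after scaling (0.02, adjusted p = 0.878), and was not called without shCDCA8 replicate 1 (-0.24) or shCTRL replicate 2 (-0.18).

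The aldolases, which split fructose 1,6-bisphosphate, both rose. ALDOC, the isoenzyme typical of brain, had 61.0 and 61.2 RPM in shCDCA8 libraries, against 21.8 and 29.4 RPM in shCTRL libraries, a log2 fold change of 1.24 ± 0.134 (SE, limma adjusted p = 8.94e-06) as deposited and 1.54 ± 0.119 after scaling. It had the largest rise of the tested members under both scalings. ALDOA, the ubiquitous isoenzyme, had 693 and 719 RPM in shCDCA8 libraries, against 409 and 481 RPM in shCTRL libraries, and rose by 0.67 as deposited (limma adjusted p = 6.38e-05) and 0.98 after scaling. Over 14 alternatives ALDOC lay between 1.03 and 1.57 and ALDOA between 0.55 and 1.13. Those that rescale the libraries raised both values, so they are no stricter for a rise. TPI1, which interconverts the triose phosphates, had 506 and 521 RPM in shCDCA8 libraries, against 416 and 467 RPM in shCTRL libraries. Its rise of 0.22 as deposited was close to the threshold (limma adjusted p = 0.0443) and was lost without shCDCA8 replicate 1 (0.24, adjusted p = 0.0832), shCDCA8 replicate 2 (0.20, adjusted p = 0.135) or shCTRL replicate 1 (0.14, adjusted p = 0.325), whereas after scaling it was 0.53 (adjusted p = 0.000347).

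Of the enzymes after the triose phosphates, PGK1, the first that forms ATP, fell under both scalings. PGK1 had 193 and 167 RPM in shCDCA8 libraries, against 303 and 377 RPM in shCTRL libraries, and fell by 0.91 as deposited (limma adjusted p = 2.90e-05) and by 0.60 after scaling (adjusted p = 0.00179). GAPDH, the enzyme just before it and a common normaliser of expression assays, had 1391 and 1422 RPM in shCDCA8 libraries, against 1648 and 1876 RPM in shCTRL libraries. It fell by 0.32 as deposited (limma adjusted p = 0.00523), stood at -0.0089 after scaling (adjusted p = 0.926), was higher by 0.29 under quantile normalization (adjusted p = 0.000328) and by 0.0052 when scaled to the reads in the rows, and was not called without shCTRL replicate 2 (-0.23, adjusted p = 0.0566). PGAM1, ENO1, PKM and LDHA, which carry out the later steps up to lactate, were not called as deposited (between -0.08 and 0.10) and rose by 0.23 to 0.41 after scaling (limma adjusted p between 0.00268 and 0.0315); the call of LDHA was lost under quantile normalization (0.31, adjusted p = 0.052). For ENO1, PKM and LDHA the groups overlapped as deposited.

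ENO2, the neuronal enolase, had 71 and 42 reads in shCDCA8 libraries, against 118 and 158 reads in shCTRL libraries. It fell by 0.88 as deposited (limma adjusted p = 0.000966) and by 0.68 after scaling (adjusted p = 0.0122), but was not called under quantile normalization (-0.49, adjusted p = 0.0586). LDHA had 224 and 178 RPM in shCDCA8 libraries, against 173 and 211 RPM in shCTRL libraries. LDHB, whose subunit favours the conversion of lactate to pyruvate, had 103 and 86.9 RPM in shCDCA8 libraries, against 141 and 132 RPM in shCTRL libraries; it fell by 0.52 as deposited (limma adjusted p = 0.001) and stood at -0.21 after scaling, where it was not called (adjusted p = 0.13).

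**Figure D2:**
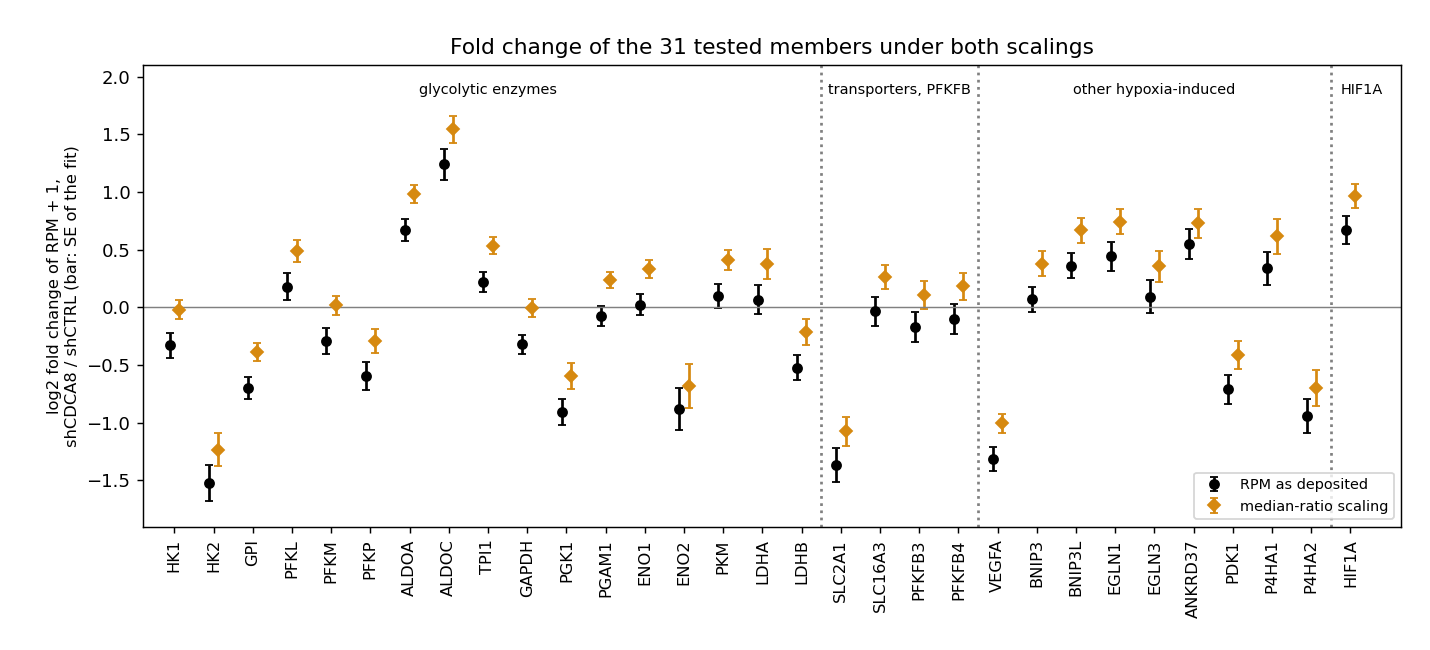
Log2 fold change of shCDCA8 over shCTRL for the 31 tested members in pathway order, with black circles for RPM as deposited, orange diamonds for median-ratio scaling and bars for the SE of the limma fit. ALDOC reaches 1.24 and 1.54 while HK2 lies at -1.52 and -1.23, and scaling moves each gene upward by a similar amount.

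The direction of the enzymes' summed level depended on the denominator. On RPM as deposited the sum of the 17 was 5336 and 5448 RPM in shCDCA8 libraries, against 5347 and 6180 RPM in shCTRL libraries, and the groups overlapped with a lower mean after knockdown. After median-ratio scaling it was 6081 and 5909 in shCDCA8 libraries, against 4915 and 5387 in shCTRL libraries. As a share of the reads in gene rows the sum was 1.60% and 1.59% in shCDCA8 libraries, against 1.30% and 1.42% in shCTRL libraries, so on this denominator the groups did not overlap and the knockdown libraries were higher. An exact permutation test of 2 against 2 cannot give a p below 0.333, so none is given for these sums. ALDOA made up 13.0% and 13.2% of the sum in shCDCA8 libraries, against 7.65% and 7.78% in shCTRL libraries. GAPDH, the largest part, made up 26.1% and 26.1% in shCDCA8 libraries, against 30.8% and 30.3% in shCTRL libraries.

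Ratios of 2 genes within a library do not depend on a single factor per library, though they do on quantile normalization, and 10 pairs of isoenzymes or paralogs were compared. For 8 of them the groups did not overlap. Of these 6 were lower and 2 higher after knockdown, a direction that depends on which gene was made the numerator. The pairs of PFKM and PFKP share PFKL, so they are not separate results. Among single genes the groups did not overlap for 83.2% as deposited and 84.2% after median-ratio scaling. Single-gene values, unlike ratios, depend on the factor per library, and no such share was computed for other pairs of genes. HK2 relative to HK1 was 0.0946 and 0.114 in shCDCA8 libraries, against 0.246 and 0.274 in shCTRL libraries, a change of the mean log2 ratio by -1.32. ALDOC relative to ALDOA was 0.0881 and 0.0850 in shCDCA8 libraries, against 0.0532 and 0.0611 in shCTRL libraries (0.60). LDHA relative to LDHB was 2.17 and 2.05 in shCDCA8 libraries, against 1.22 and 1.60 in shCTRL libraries (0.59), so the balance of these RNAs moved toward the A subunit in both knockdown libraries. The size of this change depended on the control library, at 0.40 without shCTRL replicate 1 and 0.79 without shCTRL replicate 2.

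The phosphofructokinase and enolase pairs shifted away from PFKM, PFKP and ENO2. PFKP relative to PFKL was 0.515 and 0.430 in shCDCA8 libraries, against 0.780 and 0.851 in shCTRL libraries (-0.79), and PFKM relative to PFKL changed by -0.48. ENO2 relative to ENO1 changed by -1.45, with the widest spread between shCDCA8 libraries of all pairs, and by -0.90 when 1 RPM was added to each gene, ENO2 being low. BNIP3 relative to BNIP3L changed by -0.30. PFKFB4 relative to PFKFB3 (0.08) and EGLN3 relative to EGLN1 (-0.35) overlapped between the groups. Their values rested on single libraries: EGLN3 to EGLN1 was -0.12 without shCDCA8 replicate 2, -0.58 without shCDCA8 replicate 1 and -0.22 without shCTRL replicate 2, and PFKFB4 to PFKFB3 was 0.0054 without shCTRL replicate 1 and 0.16 without shCTRL replicate 2. The level of such a ratio also reflects transcript lengths, so only its change is compared.

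**Figure D3:**
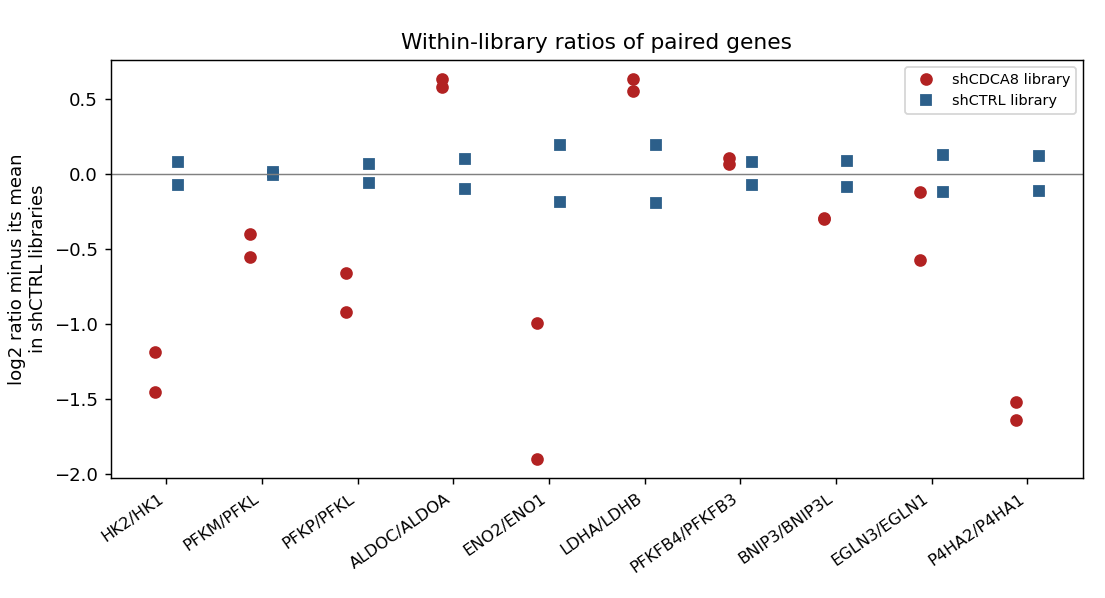
Log2 ratio of each of 10 gene pairs in each library, minus the mean log2 ratio of the shCTRL libraries, with red circles for shCDCA8 and blue squares for shCTRL libraries. The shCDCA8 libraries lie apart from the shCTRL libraries for 8 pairs, with a mean difference of -1.58 for P4HA2/P4HA1 and 0.60 for ALDOC/ALDOA.

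RNA of the main glucose importer fell. SLC2A1, which encodes the glucose transporter GLUT1, had 8.19 and 10.3 RPM in shCDCA8 libraries, against 22.9 and 28.1 RPM in shCTRL libraries. Both knockdown libraries were below both controls, with a log2 fold change of -1.37 ± 0.146 (SE, limma adjusted p = 7.95e-06) as deposited and -1.08 ± 0.129 after scaling. SLC16A3, which encodes the lactate exporter MCT4, had 20.9 and 25.4 RPM in shCDCA8 libraries, against 22.4 and 24.9 RPM in shCTRL libraries. Its groups overlapped and it was not called (-0.04, limma adjusted p = 0.817; 0.26 after scaling, adjusted p = 0.0544). PFKFB3 and PFKFB4 make or break down fructose 2,6-bisphosphate, the activator of phosphofructokinase, and neither was called (-0.17 and -0.10 as deposited; 0.10 and 0.18 after scaling).

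HIF1A had 19.3 and 21.5 RPM in shCDCA8 libraries, against 12.2 and 12.7 RPM in shCTRL libraries. It rose by 0.67 ± 0.122 (SE, limma adjusted p = 0.000443) as deposited and by 0.97 ± 0.104 after scaling. Over 14 alternatives it lay between 0.54 and 1.03. Those that rescale the libraries raised the value, so they are no stricter for a rise. EGLN1, the main hydroxylase acting on HIF1A, had 27.3 and 34.0 RPM in shCDCA8 libraries, against 22.2 and 22.2 RPM in shCTRL libraries. EGLN1 rose by 0.44 as deposited (limma adjusted p = 0.00858) and by 0.74 after scaling, and was not called as deposited without shCDCA8 replicate 2 (0.29, adjusted p = 0.125). EGLN3, a strongly hypoxia-induced hydroxylase, had 5.70 and 5.17 RPM in shCDCA8 libraries, against 4.61 and 5.48 RPM in shCTRL libraries, and was not called as deposited (0.09, limma adjusted p = 0.575) but was after scaling (0.36, adjusted p = 0.0441).

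VEGFA, the secreted angiogenic factor, had 41.2 and 42.3 RPM in shCDCA8 libraries, against 101 and 110 RPM in shCTRL libraries. Its log2 fold change was -1.31 ± 0.101 (SE, limma adjusted p = 6.57e-07) as deposited and -1.01 ± 0.0789 after scaling. Over 14 alternatives it lay between -1.37 and -0.99. PDK1, the kinase that restrains pyruvate dehydrogenase, had 13.0 and 11.3 RPM in shCDCA8 libraries, against 20.5 and 20.4 RPM in shCTRL libraries. It fell by 0.71 as deposited (limma adjusted p = 0.000327) and by 0.42 after scaling (adjusted p = 0.0142).

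The mitophagy receptor genes both had positive values, whereas the values of the collagen hydroxylase genes had opposite signs. BNIP3L had 63.8 and 54.7 RPM in shCDCA8 libraries, against 45.4 and 46.1 RPM in shCTRL libraries. It rose by 0.36 as deposited (limma adjusted p = 0.012) and by 0.67 after scaling, but not as deposited without shCDCA8 replicate 1 (0.25, adjusted p = 0.148). BNIP3 had 161 and 138 RPM in shCDCA8 libraries, against 133 and 152 RPM in shCTRL libraries, overlapping as deposited (0.07, limma adjusted p = 0.597) and called after scaling (0.38, adjusted p = 0.0125). P4HA2, a catalytic subunit of collagen prolyl 4-hydroxylase, had 2.91 and 2.13 RPM in shCDCA8 libraries, against 5.40 and 6.08 RPM in shCTRL libraries, and fell by 0.94 as deposited (limma adjusted p = 0.000159) and by 0.70 after scaling. P4HA1, the alternative subunit, had 10.6 and 8.46 RPM in shCDCA8 libraries, against 7.47 and 7.15 RPM in shCTRL libraries, not called as deposited (0.34, adjusted p = 0.0536) and called after scaling (0.62, adjusted p = 0.00633). As deposited P4HA1 stood at 0.19 (limma adjusted p = 0.424) without shCDCA8 replicate 1 and was called without shCDCA8 replicate 2 (0.48, adjusted p = 0.0254). Their ratio, P4HA2 to P4HA1, was 0.274 and 0.252 in shCDCA8 libraries, against 0.724 and 0.850 in shCTRL libraries (-1.58).

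A pair of common hypoxia markers were near the detection limit. CA9, a carbonic anhydrase widely used as a hypoxia marker, had 4 and 13 reads in shCDCA8 libraries, against 5 and 20 reads in shCTRL libraries, and ADM, which encodes the vasodilator adrenomedullin, had 4 and 10 reads in shCDCA8 libraries, against 5 and 4 in shCTRL libraries. Neither passed the filter on low values, and a change of either was not detectable at this depth. ANKRD37, a direct HIF target, was low but tested, at 1.70 and 2.17 RPM in shCDCA8 libraries, against 0.976 and 1.03 RPM in shCTRL libraries. It rose by 0.55 as deposited (limma adjusted p = 0.00324) and by 0.73 after scaling, and its reads cannot be separated from those of the overlapping genes LRP2BP and UFSP2 if strand was not used.

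**Figure D4:**
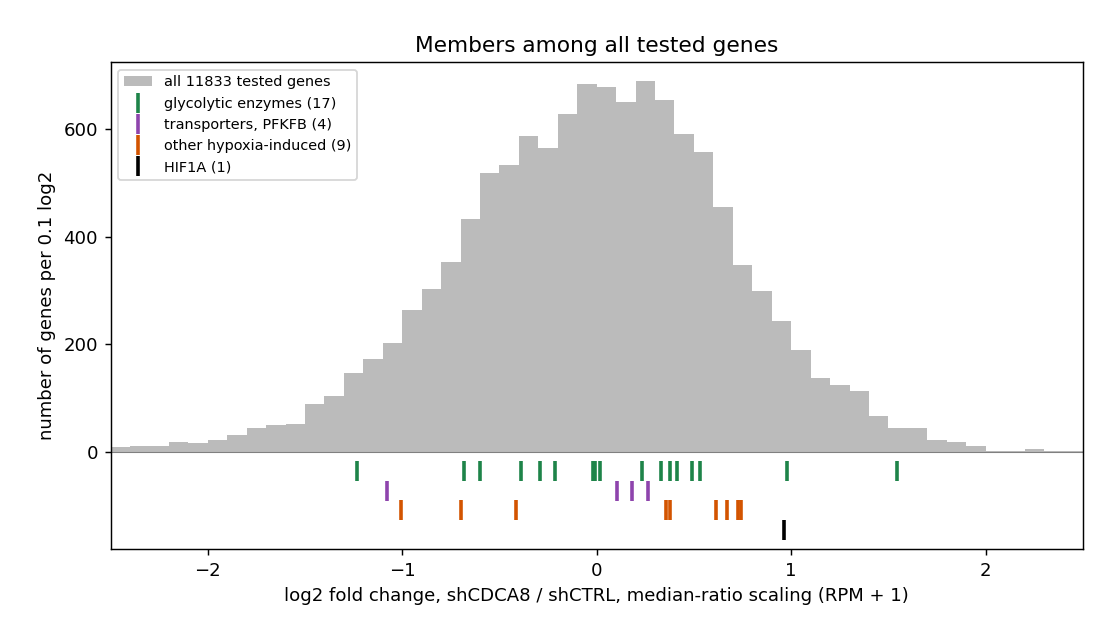
Histogram of the log2 fold change after median-ratio scaling over all 11833 tested genes, with the members of each role as ticks below it. The ticks spread over both sides of 0, between -1.23 for HK2 and 1.54 for ALDOC, and the other hypoxia-induced genes leave a gap between -0.42 and 0.36.

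Genes that feed or branch from glycolysis were counted from lists of other members of these pathways, to be read against all tested genes, of which 18.8% rose and 47.6% fell as deposited and 33.2% rose and 33.6% fell after scaling. Fold changes of single genes are given as deposited and then after scaling. Of 9 tested glycolytic enzymes and isoenzymes outside the members, 2 rose and 4 fell as deposited (4 and 4 after scaling), with PGM1, which links glycogen to glycolysis, at -1.34 and -1.07 and LDHD, which oxidises D-lactate, at -0.91 and -0.63. Of 4 gluconeogenic enzymes all fell as deposited and 3 after scaling, with PCK2 at -3.87 and -3.57 and PC at -0.62 and -0.33. Of 12 sugar, lactate and pyruvate transporters 1 rose and 7 fell (2 and 6 after scaling; the 1 rise was lost whichever of the 4 libraries was left out), among them SLC2A12 (-1.73 and -1.46) and SLC16A1, the lactate transporter MCT1 (-1.06 and -0.76). Of 7 pentose phosphate enzymes 3 fell (1 rose and 2 fell after scaling), with PGLS at -0.81 and -0.50 and PGD at -0.66 and -0.35; as deposited that is near the share of all genes that fell. Of 7 glycogen enzymes 2 rose and 4 fell (2 and 3 after scaling), with the phosphorylases PYGL at -1.49 and -1.22 and PYGB at -0.92 and -0.61.

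The pyruvate dehydrogenase complex, by which pyruvate enters oxidation in mitochondria, was among the lists of genes outside the members the one with more rises than falls under both scalings. Of 9 tested genes outside the members 4 rose and 2 fell as deposited, and 6 rose and 1 fell after scaling, with a median of 0.22 and 0.51 beside -0.27 and 0.0058 for all genes. DLD, its dihydrolipoamide dehydrogenase, had 57.9 and 50.7 RPM in shCDCA8 libraries, against 25.4 and 19.2 RPM in shCTRL libraries (1.26, limma adjusted p = 9.58e-06; 1.56 after scaling). PDK2, a further inhibitory kinase of the complex, had 8.90 and 9.31 RPM in shCDCA8 libraries, against 28.4 and 30.9 RPM in shCTRL libraries (-1.60, limma adjusted p = 5.76e-07; -1.31 after scaling). PDK1 and PDK2 thus both fell while DLD rose, but other regulators on the list differed. PDK3 was not called (-0.21 and, after scaling, 0.07). PDP2 fell as deposited (-0.63, limma adjusted p = 0.0035) and was not called after scaling (-0.34). PDP1 was not called as deposited (0.22) and rose after scaling (0.48). As deposited, the excess of rises over falls in this list was lost without shCDCA8 replicate 1 or without shCTRL replicate 1.

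Of 12 tested genes of the hypoxia-inducible factor pathway outside the members 3 rose and 4 fell as deposited, and 6 rose and 2 fell after scaling; 2 fell as deposited without shCDCA8 replicate 1. CUL2, the scaffold of the ubiquitin ligase that degrades the alpha subunits, had 17.4 and 17.1 RPM in shCDCA8 libraries, against 10.1 and 8.05 RPM in shCTRL libraries (0.87, limma adjusted p = 0.000146; 1.15 after scaling). ARNT, the partner that HIF1A needs to bind DNA, had 18.4 and 17.2 RPM in shCDCA8 libraries, against 27.5 and 31.9 RPM in shCTRL libraries (-0.71, limma adjusted p = 0.000286). HIF1A and ARNT therefore changed in opposite directions, also after scaling (ARNT -0.41, adjusted p = 0.00887). Of 26 tested hypoxia-induced genes outside the members 6 rose and 13 fell as deposited, and 8 rose and 10 fell after scaling. The largest falls were of STC2, which encodes a secreted glycoprotein, and DDIT4, an inhibitor of mTORC1, both also known as targets of ATF4. STC2 had 11.5 and 11.5 RPM in shCDCA8 libraries, against 90.8 and 93.6 RPM in shCTRL libraries, and DDIT4 had 21.0 and 23.0 RPM in shCDCA8 libraries, against 116 and 115 RPM in shCTRL libraries. Their log2 fold changes were -2.90 and -2.34 as deposited and -2.60 and -2.04 after scaling.

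Of 7 tested transcription factors known to act on glycolytic genes 6 fell as deposited, and 5 fell and 1 rose after scaling, where 47.6% and 33.6% of all tested genes fell. MYC, a known activator of glycolytic genes, had 55.0 and 59.3 RPM in shCDCA8 libraries, against 153 and 139 RPM in shCTRL libraries (-1.34 and, after scaling, -1.03). ATF4 had 131 and 125 RPM in shCDCA8 libraries, against 662 and 677 RPM in shCTRL libraries (-2.38 and -2.07). The part of either in the values above was not tested.

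RefSeq names at least 1 pseudogene for 15 of the 33 members, with 65 for GAPDH, 46 for BNIP3 and 13 for PGAM1. The sources used here do not give how reads that match several copies were counted, so the levels of these genes are uncertain. Spans of 9 members overlap another gene of the table, among them TPI1 with SPSB2, PFKM with SENP1 and HIF1A with HIF1A-AS1.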

How the data were processed

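PolyA RNA of C4-2 cells was measured in 2 shCDCA8 and 2 shCTRL libraries. The authors deposited RPM values, as the tables are named; TopHat, HTSeq, cutadapt, edgeR and the build hg19 appear in the submitters' processing notes, without versions or roles. All values above 0 were whole multiples of 1 step per library (100% within 0.01 of a whole read), so reads were recovered. The divisors were 46709612 to 55289855 reads, and the sources used here do not give their basis. No column of another sample and no unnamed row was present. log2(RPM + 1) was fitted with limma 3.58.1 in R 4.3.3 (trend, two-sided) over genes that reached 1 RPM in 2 or more of 4 libraries. Benjamini-Hochberg adjustment ran over all 11833 genes, with calls at 0.05. On recovered reads edgeR 4.0.16 (quasi-likelihood, TMM) called 3851 genes higher and 3956 lower, and DESeq2 1.42.0 served as a further alternative. Libraries of the same group were not duplicates (chi-square of their reads 11.6 per degree of freedom for shCDCA8, 9.70 for shCTRL). The fit was also run on simulated data, and the outcome of that run is not given here. All members are named, with CDCA8 and, per outside list, up to 2 called genes of at least 5 RPM on average without overlap and with the largest change. Some markers and further regulators of pyruvate dehydrogenase are named beside them. Members, lists and pairs were chosen with earlier results of these data known. Older symbols were matched through RefSeq synonyms.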

Additional observations from a re-analysis of the deposited data

How the results depend on the processing

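Scaling moved more results than any other choice. Over all genes, 3931 rose under median-ratio scaling, 3980 with quantile normalization, 3985 when each library was scaled to its row total, 3851 with edgeR and 3639 with DESeq2, against 2224 as deposited; 3721 fell with quantile normalization and 3575 with DESeq2, against 5628. Each of these 5 settings gave 8 rises and 5 falls among the glycolytic enzymes, and 6 rises among the other hypoxia-induced genes (5 with DESeq2), but not of the same genes: with quantile normalization GAPDH rose and LDHA was not called, and LDHB fell and ENO2 was not called. The glycolytic median was 0.02, 0.21, 0.03, 0.0094 and 0.015 under them in that order, and -0.18 with a filter at 5 RPM, which leaves out ENO2. The other hypoxia-induced median was 0.38, 0.39, 0.39, 0.42 and 0.42. Values below 0 as deposited turned positive for PGAM1 (0.23, 0.21, 0.25, 0.23 and 0.23), SLC16A3 (0.26, 0.22, 0.28, 0.27 and 0.28), PFKFB3 (0.10, 0.095, 0.12, 0.11 and 0.12) and PFKFB4 (0.18, 0.16, 0.19, 0.20 and 0.20), and PGAM1 alone of these was called. PFKM turned to 0.016 with median-ratio scaling, 0.030 with row totals, 0.0094 with edgeR and 0.015 with DESeq2, and GAPDH to 0.29 with quantile normalization and 0.0052 with scaling to the rows. Leaving out 1 library, where the lone sample is assumed to vary like the other group, gave 1869 to 2059 rises and 4848 to 5624 falls over all genes, 2 to 3 rises and 6 to 9 falls among the glycolytic enzymes (median -0.40 to -0.18), 2 to 3 rises and 3 falls among the other hypoxia-induced genes (median -0.011 to 0.20), and a difference in the enzymes' share of reads of 0.180 to 0.296 percentage points. Taken of the library total behind RPM, an alternative chosen after seeing the data, that difference was -0.0371 percentage points against 0.238 of the reads in rows. Leaving out 1 library also changed the sign of uncalled values for ENO1 (-0.095 to 0.14), PKM (-0.030 to 0.23), LDHA (-0.099 to 0.23), SLC16A3 (-0.17 to 0.097), BNIP3 (-0.046 to 0.18) and EGLN3 (-0.011 to 0.20). With the replicate number as a block 2712 genes rose and 6189 fell, 4 and 9 of them glycolytic enzymes and 4 and 3 other hypoxia-induced genes, with PFKL (0.18, adjusted p = 0.025) and P4HA1 (0.34, adjusted p = 0.0106) gained; the labels do not say that a number marks a shared culture, and deviations of same-numbered libraries correlated with r = 0.31 across 11833 genes, which are not independent replicates. Without a filter PFKM (adjusted p = 0.0582), TPI1 (0.13) and GAPDH (0.0856) were not called. In the outside lists, counts over the alternatives went from 1 to 5 falls for gluconeogenic enzymes, 0 to 2 rises for transporters and for pentose phosphate enzymes, 2 to 6 rises for the pyruvate dehydrogenase list and 2 to 6 rises and 2 to 5 falls for the hypoxia-inducible factor pathway. In all, 347 of the alternative values of single genes kept direction and side of the threshold. Another 36 changed direction, and of the rest 36 gained a call and 27 lost one. The causes were not tested beyond what each setting changes. Few reads limit CA9 and ADM.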

Other observations

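The small RNA table holds the microRNA most often described as hypoxia-induced, miR-210. Its mature 3p form, hsa-miR-210-3p (seed in capitals, RefSeq GRCh38.p14), is shown because it is the form usually measured.
hsa-miR-210-3p: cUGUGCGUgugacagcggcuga
It stood at 3.60 and 2.18 RPM in shEZH2 libraries, against 1.76 and 2.66 RPM in shCTRL libraries, and the groups overlapped. By mean RPM it ranked 294 of 1506 small RNA rows. No test was run on it, and these libraries are separate from those of the CDCA8 comparison.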
